A study of Homo sapiens with 4 samples.

Results

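The subject is a set of 35 genes, taken by symbol from the 25680 gene rows of each library. They write, read or remove methylation of histone H3 at lysine 9 (H3K9) or of DNA, or act beside those that do. RNA-seq libraries came from THP-1, an established human monocytic leukaemia line, in a study of PIWIL4 in acute myeloid leukaemia (AML). One group had received the lentivirus PGP-Scrambled, which carries a scrambled short hairpin RNA (shRNA), and the other the lentivirus PGP-shPIWIL4, whose single shRNA targets PIWIL4. There were 2 libraries of each kind, all from cells sorted by FACS at 48 hours from transduction. Both groups were therefore virus-treated, and no group with another shRNA or with PIWIL4 restored is analysed here. Titles set the groups here, since for the shPIWIL4 libraries the word scrambled also stands in the label of their treatment. The titles mark the libraries of a group as "exp. rep1" and "exp. rep2" and do not say whether these were separate cultures, so p-values measure the spread between these libraries, which may be technical.

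Methylated H3K9 marks silent chromatin and is bound by the HP1 proteins. SETDB1, brought to its targets by TRIM28 or held by its partner ATF7IP, methylates H3K9 at transposons and zinc finger genes, while SUV39H1 and SUV39H2 act mainly at repeats around centromeres and EHMT1 with EHMT2 in euchromatin. The HUSH complex, made of TASOR (listed here under its older symbol FAM208A), MPHOSPH8 and PPHLN1, spreads the mark over young retroelements with MORC2. DNMT3A and DNMT3B place new DNA methylation, DNMT1 copies it after replication, and the TET enzymes oxidise it. DNMT3A and TET2 are among the genes most often mutated in AML, and PIWI proteins direct H3K9 and DNA methylation to transposons in the germline.

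PIWIL4 itself was lower in both shPIWIL4 libraries, at 17.8 and 17.4 CPM (counts relative to the library total, scaled by TMM) against 38.5 and 37.2 CPM in the Scrambled libraries, and fell by 1.10 on the log2 scale (SE 0.09). Total counts per library ranged from 31458079 to 53657246. Of 12 myeloid markers of the line, 11 were tested, and CSF2RA was listed at 0 in all libraries. In shPIWIL4, 3 rose and 3 fell, where 28.7% of all genes tested were higher and 29.1% lower. Their summed level in TPM, the authors' unit per transcript length, was 1153 and 1212 in Scrambled and 3701 and 3543 in shPIWIL4. Most of that change was lysozyme (LYZ), at 187 and 203 TPM and then at 2499 and 2431 TPM. Of the other tested markers, CD68 and FCGR1A rose, and CD4, MPO and CSF1R fell. CD33, SPI1, CEBPA, ITGAM and CD14 were not called. T cell markers (4 genes) and erythroid markers (3 genes) were too low to test, with summed levels of at most 0.215 TPM. Summed B cell markers went from 6.63 and 6.62 TPM to 2.06 and 2.36 TPM, with MS4A1 at or near 0. Summed epithelial markers went from 2.75 and 2.48 TPM to 0.782 and 1.02 TPM, and fibroblast markers from 0.607 and 0.811 TPM to 0.063 and 0.114 TPM, and the 3 of these genes that could be tested, KRT8, KRT18 and COL1A1, fell. The part of these markers in the results on the members was not tested. In bulk RNA, fewer cells of a type and less RNA per cell cannot be told apart.

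Of the 35 members, 34 passed the filter on low counts and EHMT2 did not. In shPIWIL4, 5 members rose (SUV39H1, SUV39H2, CBX1, DNMT1 and TET3) and 11 fell (EHMT1, CBX5, FAM208A, MPHOSPH8, DNMT3A, DNMT3B, TET1, KDM3A, KDM4B, KDM4C and KDM4D). A call is an adjusted p under 0.05 in edgeR's quasi-likelihood test, adjusted by Benjamini-Hochberg over all 16108 genes tested. Over all genes tested, 57.7% were called, 28.7% higher and 29.1% lower. Among the tested members 47.1% were called, 14.7% higher and 32.4% lower, so the share of called members lay below that of all genes for rises and near it for falls. The median log2 fold change was 0.01 over the members and -0.0034 over all genes tested. The groups did not overlap for 24 of 34 members (70.6%), against 78.6% of all genes tested. Upper-quartile scaling in place of TMM moved the share of calls that were higher from 49.7% to 37.6% over all genes, and the members to 4 higher and 14 lower. Most changes were below 2-fold: of the 16 called members, only TET1 and KDM4D passed it. The H3K9 methyltransferases, DNA methyltransferases, HP1 genes and TET genes each held rises and falls. No rise was called among H3K9 demethylases, HUSH and MORC2, SETDB1 partners, remodelling and deposition genes or deacetylases. With so few genes in each role and 14.7% of the tested members higher, this is no result about the roles.

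**Figure D1:**
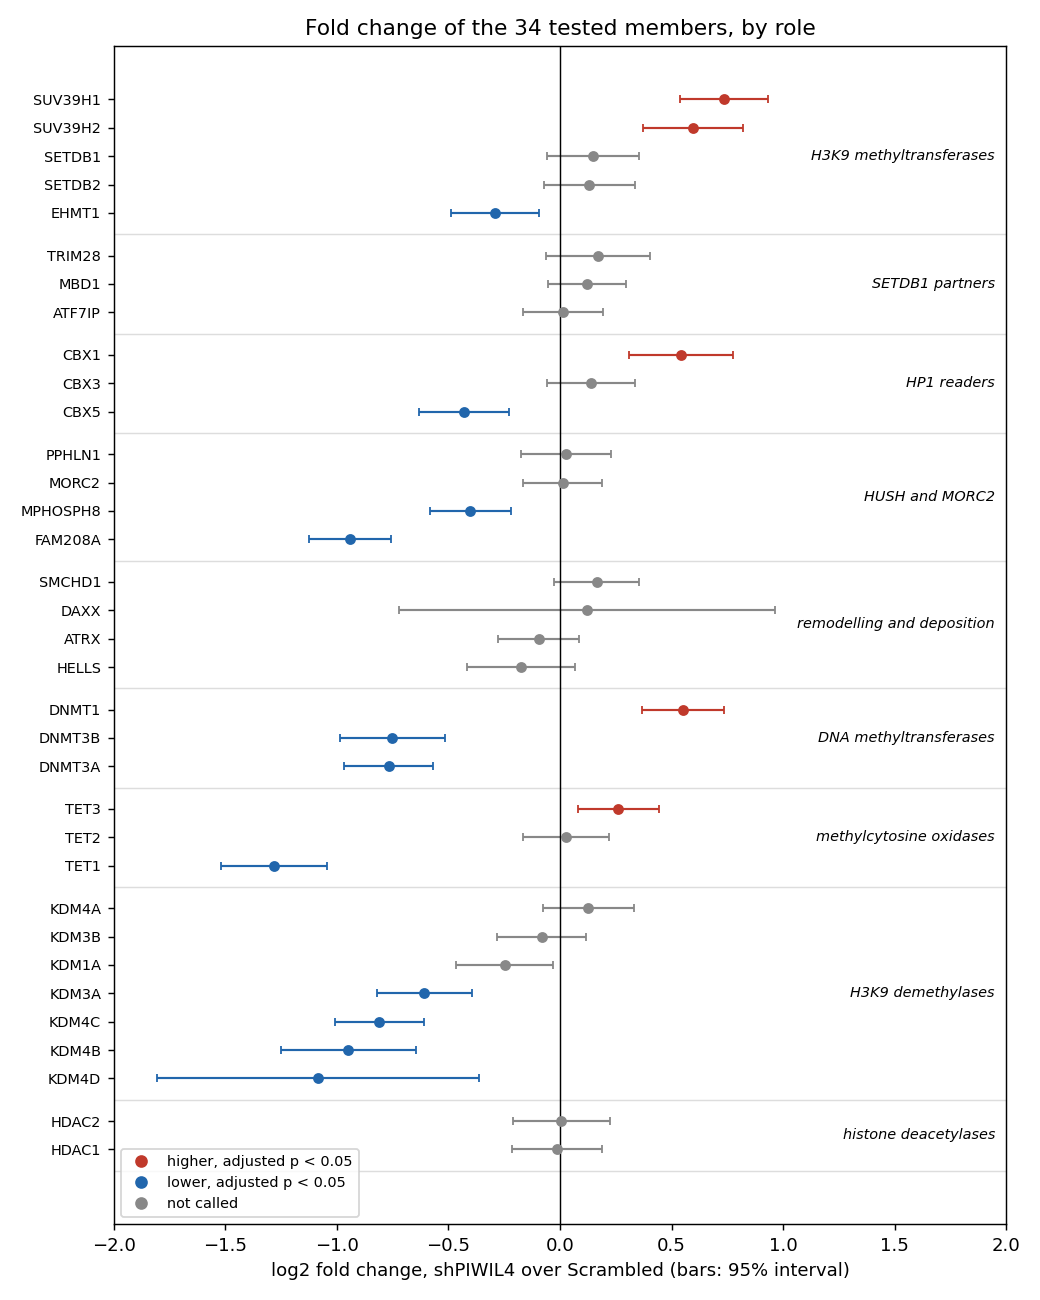
Log2 fold change of shPIWIL4 over Scrambled for the 34 tested members, grouped by role, with bars for the 95% interval of the quasi-likelihood fit (2 libraries a group). Red points rose, blue points fell and grey points were not called. DNMT1 lies right of 0 at 0.55 while DNMT3A and DNMT3B lie left of it at -0.77 and -0.75.

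Among the DNA methyltransferases, the maintenance and the de novo enzymes moved in opposite directions. DNMT1, which copies methylation to the new strand with its cofactor UHRF1, was at 232 and 227 CPM in Scrambled libraries 1 and 2 and at 337 and 334 CPM in shPIWIL4 libraries 1 and 2. It rose by 0.55 (log2, SE 0.08, adjusted p of 3.6e-04 in edgeR's test), with both shPIWIL4 libraries above both Scrambled libraries. DNMT3A, a de novo enzyme and a frequent site of mutation in AML, went from 51.4 and 55.5 CPM to 31.3 and 31.5 CPM. It fell by 0.77 on the log2 scale (SE 0.09, edgeR adjusted p of 8.1e-05). DNMT3B, the other de novo enzyme, went from 19.7 and 21.8 CPM to 12.5 and 12.2 CPM and fell by 0.75 (SE 0.10, edgeR adjusted p of 2.6e-04). The groups did not overlap for any of the 3 genes. DNMT3L, a catalytically inactive partner of DNMT3A and DNMT3B that is active in germ cells, stood at 2.55 and 2.84 CPM in Scrambled and 0.395 and 0.308 CPM in shPIWIL4, a fall of 2.94 (SE 0.22) at a low level. Per length, the summed level of DNMT3A and DNMT3B was 0.311 and 0.346 of that of DNMT1 in Scrambled libraries 1 and 2, and 0.132 in both shPIWIL4 libraries. The summed level of all 3 enzymes, dominated by DNMT1, was 111 and 115 TPM in Scrambled and 149 and 142 TPM in shPIWIL4.

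**Figure D2:**
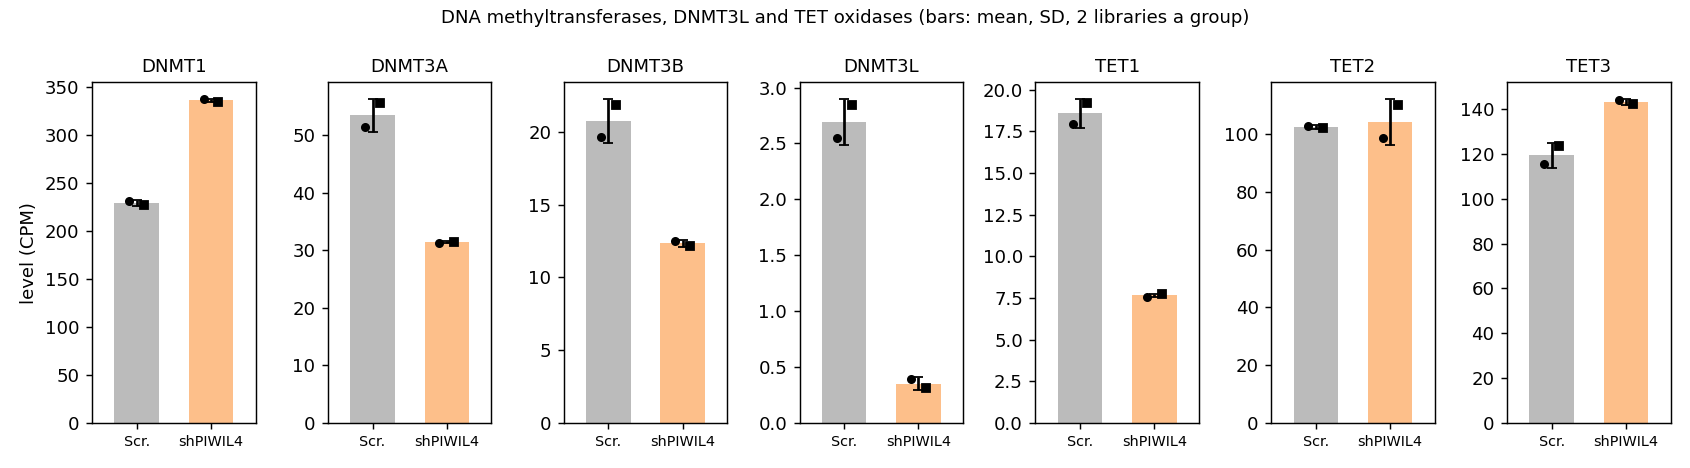
Levels in CPM of DNMT1, DNMT3A, DNMT3B, their partner DNMT3L and the TET genes, each on its own axis from 0. Bars are means with the SD over 2 libraries, circles are library 1 and squares library 2 of each group. DNMT1 and TET3 are higher in shPIWIL4, DNMT3A, DNMT3B, DNMT3L and TET1 lower, and TET2 overlaps.

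DNMT1 transcripts are known to vary with the cell cycle. Of 20 proliferation genes, 13 rose and 0 fell, where 28.7% of all genes tested were higher and 29.1% lower, and their median log2 fold change was 0.33, where that of all genes tested was -0.0034. They had summed levels of 1908 and 1903 TPM in Scrambled and 2407 and 2504 TPM in shPIWIL4. Among the 13 that rose, E2F1 was at 38.9 and 39.5 CPM in Scrambled and 73.6 and 65.0 CPM in shPIWIL4, a rise of 0.82 (SE 0.09). The part of the proliferation genes in the DNMT1 and SUV39H1 results was not tested. UHRF1 was at 61.4 and 74.3 CPM in Scrambled and 99.2 and 67.0 CPM in shPIWIL4, so its groups overlapped and its log2 fold change of 0.29 (SE 0.17) was not called (edgeR adjusted p of 0.16). HELLS, a chromatin remodeller that helps DNMT1 and is also linked to proliferation, was at 14.3 and 16.04 CPM in Scrambled and 13.7 and 13.2 CPM in shPIWIL4, a log2 fold change of -0.17 that was not called. The DNMT1 promoter is shown because E2F factors, which drive cell cycle genes, are known to act on it, and the letters searched were chosen after the values were seen. It runs from 250 bases before the start site to 50 after it (RefSeq, GRCh38.p14, chr19:10194904-10195203, minus strand, 5′ to 3′ along the gene), with the only match to the E2F-type letters TTTNNCGC, here on the opposite strand, in capitals.
DNMT1: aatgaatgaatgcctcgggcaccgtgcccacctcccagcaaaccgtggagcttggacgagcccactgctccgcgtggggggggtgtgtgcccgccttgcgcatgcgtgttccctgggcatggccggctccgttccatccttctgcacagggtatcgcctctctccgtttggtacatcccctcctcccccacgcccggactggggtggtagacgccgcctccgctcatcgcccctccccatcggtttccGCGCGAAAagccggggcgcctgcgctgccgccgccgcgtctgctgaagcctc
TTTNNCGC was searched on both strands of the first start listed for each gene and occurred in 6.9% of 27305 promoters. Among members it occurred in 1 of the 5 that rose, 2 of the 11 that fell and 2 of 15 that were not called. A match of letters is a description and not a bound site.

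The TET genes, whose enzymes turn methylcytosine into its oxidised forms, were also split. TET1 had the lowest fitted log2 fold change of the 34 tested members and went from 17.9 and 19.2 CPM in Scrambled to 7.58 and 7.72 CPM in shPIWIL4. The fall was 2.43-fold, a log2 fold change of -1.28 (SE 0.11, edgeR adjusted p of 1.2e-05), and the groups did not overlap. TET3 rose by 0.26 (SE 0.08, edgeR adjusted p of 0.0195), from 115 and 123 CPM to 144 and 142 CPM. That call was not made without either Scrambled library, where the adjusted p was 0.173 without library 1 and 0.0689 without library 2, nor with upper-quartile scaling (0.148) or with the replicate number as a block (0.103). Over all alternatives it ranged from 0.00313 to 0.173. TET2, the family member most often mutated in myeloid disease, was at 103 and 102 CPM in Scrambled and 98.5 and 110 CPM in shPIWIL4. The groups overlapped, and the 95% interval of its log2 fold change ran from -0.17 to 0.22. Per length, TET1 stood at 0.185 of the TET3 level in both Scrambled libraries and at 0.0624 and 0.0646 in the shPIWIL4 libraries. IDH1 and IDH2, whose product alpha-ketoglutarate feeds TET enzymes and many KDM enzymes, rose by 0.83 (SE 0.09) and 0.42 (SE 0.08).

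Of the H3K9 methyltransferases, the SUV39H pair rose. SUV39H1 was at 26.2 and 25.5 CPM in Scrambled libraries and 43.2 and 42.9 CPM in shPIWIL4 libraries, a rise of 0.74 on the log2 scale (SE 0.09, edgeR adjusted p of 1.0e-04). SUV39H2 rose by 0.60 (SE 0.10), from 14.4 and 15.7 CPM to 22.6 and 23.1 CPM (edgeR adjusted p of 7.7e-04). Neither gene had overlapping groups. SETDB1, the enzyme that acts with TRIM28 and HUSH, was at 204 and 193 CPM in Scrambled and 205 and 234 CPM in shPIWIL4. Its log2 fold change of 0.15 had an interval from -0.06 to 0.35 and was not called. Its relative SETDB2 had a log2 fold change of 0.13 (interval -0.07 to 0.34) and was not called either. Without shPIWIL4 library 1 both were called higher, SETDB1 at 0.25 and SETDB2 at 0.24. EHMT1, which forms a dimer with EHMT2, fell by 0.29 (SE 0.09, edgeR adjusted p of 0.0171), from 85.2 and 90.2 CPM to 75.4 and 67.9 CPM. That call was lost without either Scrambled library, where the adjusted p was 0.0687 without library 1 and 0.165 without library 2, and with the replicate number as a block, where it was 0.0632. Over all alternatives the EHMT1 value ranged from 1.5e-04 to 0.165. Per length, the summed level of SUV39H1 and SUV39H2 was 0.295 and 0.315 of that of SETDB1 in Scrambled, and 0.474 and 0.417 in shPIWIL4.

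The partners of SETDB1 did not pass the test. TRIM28, the corepressor that links zinc finger proteins to SETDB1, was at 283 and 313 CPM in Scrambled and 362 and 308 CPM in shPIWIL4. Its groups overlapped, and its log2 fold change of 0.17 (interval -0.06 to 0.40) was called only in 2 of the alternatives, at 0.29 without shPIWIL4 library 2 and at 0.30 with an offset for GC content. ATF7IP, which protects SETDB1 and keeps it in the nucleus, had a log2 fold change of 0.014 (interval -0.17 to 0.19). MBD1, which binds methylated CpG sites, had a log2 fold change of 0.12 (interval -0.05 to 0.30).

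The genes of the 3 HP1 proteins, which bind methylated H3K9, showed a rise, a fall and a value that was not called. CBX1 (HP1 beta) rose by 0.54 on the log2 scale (SE 0.10, edgeR adjusted p of 0.00168), from 64.1 and 56.8 CPM in Scrambled to 80.8 and 95.3 CPM in shPIWIL4. CBX5 (HP1 alpha), fell by 0.43 (SE 0.09, edgeR adjusted p of 0.0026), from 683 and 681 CPM to 486 and 526 CPM. CBX3 (HP1 gamma), which is found in active genes as well as silent chromatin, was at 376 and 397 CPM and then at 412 and 440 CPM. The CBX3 groups did not overlap, but its log2 fold change of 0.14 (interval -0.06 to 0.34) was not called. Per length, CBX1 stood at 0.416 and 0.370 of CBX5 in the Scrambled libraries and at 0.737 and 0.804 in the shPIWIL4 libraries. Whether the CBX1 and CBX5 changes differ was not tested as such, and their intervals, 0.31 to 0.78 and -0.63 to -0.23, lie on either side of 0.

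In the HUSH complex, FAM208A and MPHOSPH8 fell. FAM208A, the scaffold subunit, was at 192 and 205 CPM in Scrambled and 102 and 104 CPM in shPIWIL4, a fall of 0.94 (SE 0.08, 1.92-fold, edgeR adjusted p of 1.6e-05). MPHOSPH8, the subunit whose chromodomain binds methylated H3K9, fell by 0.40 (SE 0.08, edgeR adjusted p of 0.00222), from 119 and 115 CPM to 85.6 and 91.1 CPM. Neither gene had overlapping groups. PPHLN1, the third subunit, was at 83.8 and 79.5 CPM and then at 78.1 and 88.3 CPM, with an interval from -0.17 to 0.23. MORC2, an ATPase that HUSH brings to its targets, was at 83.5 and 80.5 CPM and then at 82.2 and 83.2 CPM, with an interval from -0.16 to 0.19. FAM208B, the paralog of FAM208A, rose by 0.74 (SE 0.10), from 90.9 and 82.3 CPM to 132 and 157 CPM. Per length, FAM208A was at 2.07 and 2.45 times the level of FAM208B in the Scrambled libraries and at 0.762 and 0.656 times in the shPIWIL4 libraries, so the order of the paralogs was inverted in both.

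ATRX and SMCHD1, which act on chromatin structure, were not called. ATRX, which deposits histone H3.3 at repeats with DAXX, was at 104 and 107 CPM in Scrambled and 95.3 and 102 CPM in shPIWIL4, with a log2 fold change of -0.10 (interval -0.28 to 0.09). SMCHD1, which helps to silence the inactive X chromosome and gene clusters, was at 224 and 222 CPM and then at 240 and 261 CPM, a log2 fold change of 0.16 (interval -0.02 to 0.35) without overlap. SMCHD1 was called higher with the length offset, with no filter on low counts and without shPIWIL4 library 1. HDAC1 and HDAC2, the deacetylases that remove acetyl groups before H3K9 is methylated, had log2 fold changes of -0.013 (interval -0.22 to 0.19) and 0.0063 (interval -0.21 to 0.22).

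Of the 7 H3K9 demethylases, 4 fell and 0 rose, where 29.1% of all genes tested were lower and 28.7% higher. KDM4B was at 111 and 130 CPM in Scrambled and at 71.2 and 53.5 CPM in shPIWIL4, a fall of 0.95 (SE 0.13, edgeR adjusted p of 2.9e-04). KDM4C was at 89.8 and 86.5 CPM and then at 47.4 and 53.2 CPM, a fall of 0.81 (SE 0.09, edgeR adjusted p of 6.2e-05). Both encode enzymes of the JMJD2 family, which removes the trimethyl mark. KDM3A, which removes the mono- and dimethyl marks, was at 124 and 113 CPM and then at 72.3 and 83.2 CPM, a fall of 0.61 (SE 0.09, edgeR adjusted p of 5.1e-04). None of the 3 had overlapping groups. The shPIWIL4 libraries differed most for KDM4B, whose longest GENCODE transcript has 61.2% GC. Across 14821 genes with a GC value, the difference between shPIWIL4 libraries 2 and 1 had a Spearman rho of -0.431 with GC content, against -0.092 for the fold change between groups. An offset for GC content was an alternative added after the data had been seen. With it, KDM3A, KDM4B and KDM4C were called lower at -0.65, -0.84 and -0.86. That offset follows GC content in the difference between groups and is the same for both shPIWIL4 libraries. It therefore cannot remove the GC-linked difference between shPIWIL4 libraries 2 and 1. KDM4D, a testis-enriched relative, had only 30 and 36 counts in Scrambled and 23 and 15 in shPIWIL4. It fell by 1.09 (SE 0.32, edgeR adjusted p of 0.0161), but was not called by DESeq2 (0.102), without Scrambled library 1 (0.0885) or without shPIWIL4 library 2 (0.0577), and over all alternatives its adjusted p ranged from 0.00135 to 0.102.

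The other demethylases were not called. KDM4A, the closest relative of KDM4B and KDM4C, was at 283 and 263 CPM in Scrambled and 283 and 313 CPM in shPIWIL4 (interval -0.08 to 0.33), and was called higher without shPIWIL4 library 1. KDM3B, the paralog of KDM3A, was at 226 and 219 CPM and then at 198 and 222 CPM (interval -0.28 to 0.12). KDM1A, a flavin-dependent demethylase and a drug target in AML, was at 158 and 146 CPM and then at 118 and 138 CPM without overlap. Its log2 fold change of -0.25 (SE 0.10) lay just outside the threshold, with an edgeR adjusted p of 0.0512, and it was called lower in 5 of 12 alternatives, with adjusted p-values from 1.8e-04 to 0.355 over all of them. Per length, the summed level of KDM4B and KDM4C was 0.530 and 0.619 of that of KDM4A in Scrambled, and 0.316 and 0.252 in shPIWIL4.

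The promoters of KDM3A, KDM4B and KDM4C are shown because all 3 genes fell and are known to be induced by hypoxia-inducible factors, whose binding core is ACGTG or GCGTG. These letters, too, were chosen after the values were seen. Each window runs from 250 bases before the first listed start to 50 after it, on the plus strand (RefSeq, GRCh38.p14), at chr2:86441121-86441420 for KDM3A, chr19:4968863-4969162 for KDM4B and chr9:6757723-6758022 for KDM4C. Capitals mark every match to ACGTG or GCGTG on either strand. A CACGTG palindrome, also known as the E-box that MYC and other factors bind, holds ACGTG on both strands at once.
KDM3A: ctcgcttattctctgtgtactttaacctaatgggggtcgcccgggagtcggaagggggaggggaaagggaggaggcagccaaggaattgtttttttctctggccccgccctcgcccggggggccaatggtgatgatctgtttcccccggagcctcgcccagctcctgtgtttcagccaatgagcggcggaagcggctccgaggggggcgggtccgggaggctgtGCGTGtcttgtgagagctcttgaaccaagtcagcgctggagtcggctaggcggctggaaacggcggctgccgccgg
KDM4B: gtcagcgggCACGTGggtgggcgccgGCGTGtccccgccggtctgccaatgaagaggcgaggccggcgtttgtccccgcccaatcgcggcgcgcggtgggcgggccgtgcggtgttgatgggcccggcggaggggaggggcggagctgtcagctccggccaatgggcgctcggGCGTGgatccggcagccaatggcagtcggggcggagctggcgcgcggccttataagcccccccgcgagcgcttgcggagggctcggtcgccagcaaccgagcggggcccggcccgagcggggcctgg
KDM4C: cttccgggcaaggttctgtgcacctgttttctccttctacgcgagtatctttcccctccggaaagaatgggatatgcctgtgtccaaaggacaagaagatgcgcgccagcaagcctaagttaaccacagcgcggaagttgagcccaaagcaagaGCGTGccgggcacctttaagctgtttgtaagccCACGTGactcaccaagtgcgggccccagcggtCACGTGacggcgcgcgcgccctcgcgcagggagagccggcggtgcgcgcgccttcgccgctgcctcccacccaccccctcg
KDM3A held 1 match, 26 bases before its start, KDM4B held 4 matches and KDM4C held 5, counting both strands. These letters are common: 48.4% of 27305 promoters of the same length held at least 1 match, as did 5 of 5 members that rose, 6 of 11 that fell and 9 of 15 that were not called. A match is not a bound site, and the binding of factors was not measured here. RefSeq windows were matched for 32 of the 35 members, FAM208A through the symbol TASOR, and the entries of TRIM28, ATRX and DAXX were missing. The 32 windows held a median of 27.5 CpG pairs (range 3 to 51), against 14.0 over all promoters of the table.

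**Figure D3:**
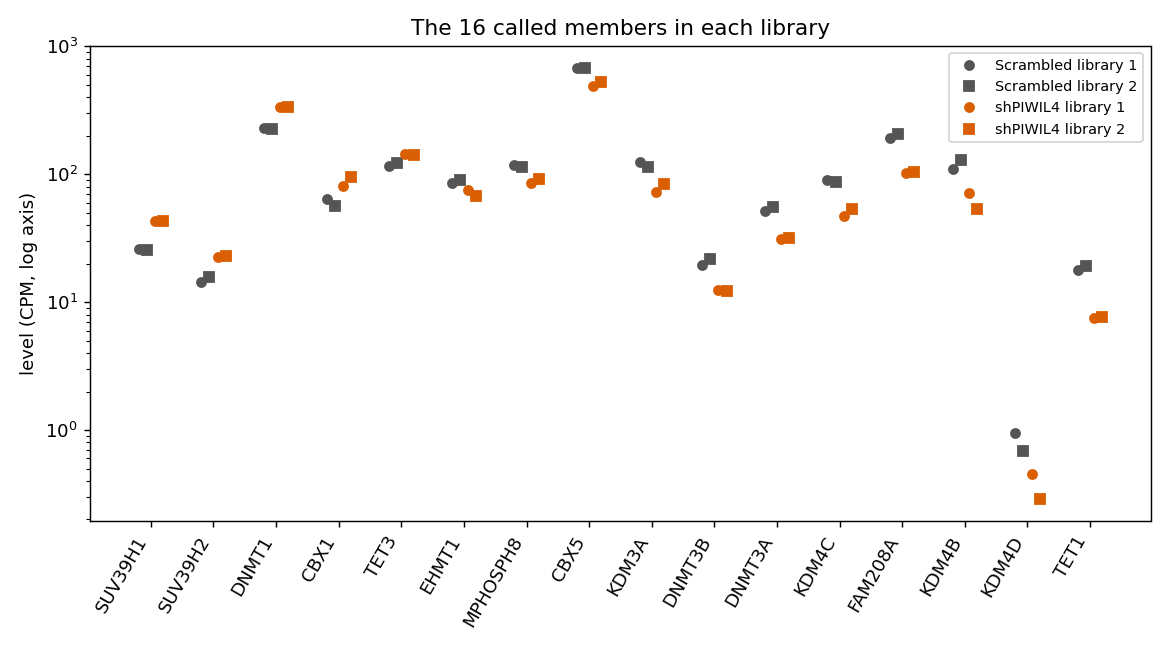
Level in CPM, on a log axis, of each of the 16 called members in the 4 libraries, ordered from the largest rise on the left to the largest fall on the right. Grey symbols are Scrambled and orange symbols shPIWIL4, with circles for library 1 and squares for library 2. In none of the 16 genes do the groups overlap, and the 2 shPIWIL4 libraries stand furthest apart for KDM4D and KDM4B.

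Per length, member values in the Scrambled libraries spanned from 315 ± 18.3 TPM for CBX3 to 0.0053 ± 0.0018 TPM for EHMT2 (SD, n = 2). The values of EHMT2 and DAXX are not to be read as expression levels, as described below. HDAC1 and TRIM28 followed CBX3, at 203 and 201 TPM, and did not differ in rank beyond their spread, since HDAC1 was the higher in library 1 and TRIM28 in library 2. KDM4A (121 TPM) and CBX5 (115 TPM) came next, followed by KDM1A (97.8 TPM), SETDB1 (85.2 TPM) and DNMT1 (84.9 TPM), of which SETDB1 was the higher in library 1 and DNMT1 in library 2. In shPIWIL4, DNMT1 reached 128 TPM and CBX5 stood at 88.0 TPM. TET1 (3.88 TPM) was the lowest member above 1 TPM, and KDM4D stood at 0.546 TPM. The methyltransferases SETDB1, EHMT1, SETDB2, SUV39H1 and SUV39H2 ranked in that order in Scrambled, at 85.2, 32.5, 23.6, 16.9 and 9.03 TPM. Summed over its members, the H3K9 demethylase role was at 405 and 400 TPM in Scrambled and 346 and 367 TPM in shPIWIL4, and the HUSH and MORC2 role at 171 and 174 TPM and then at 141 and 144 TPM. The H3K9 methyltransferase role went the other way, at 166 and 168 TPM and then at 191 and 198 TPM. EHMT2, with 3 counts in each library, added nearly nothing to this sum. The sum includes SETDB1 (mean of 85.2 and then 97.3 TPM) and SETDB2 (23.6 and then 26.7 TPM), which were not called. SUV39H1 (16.9 and then 29.1 TPM) and SUV39H2 (9.03 and then 14.1 TPM) were called higher, and EHMT1 (32.5 and then 27.4 TPM) lower.

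**Figure D4:**
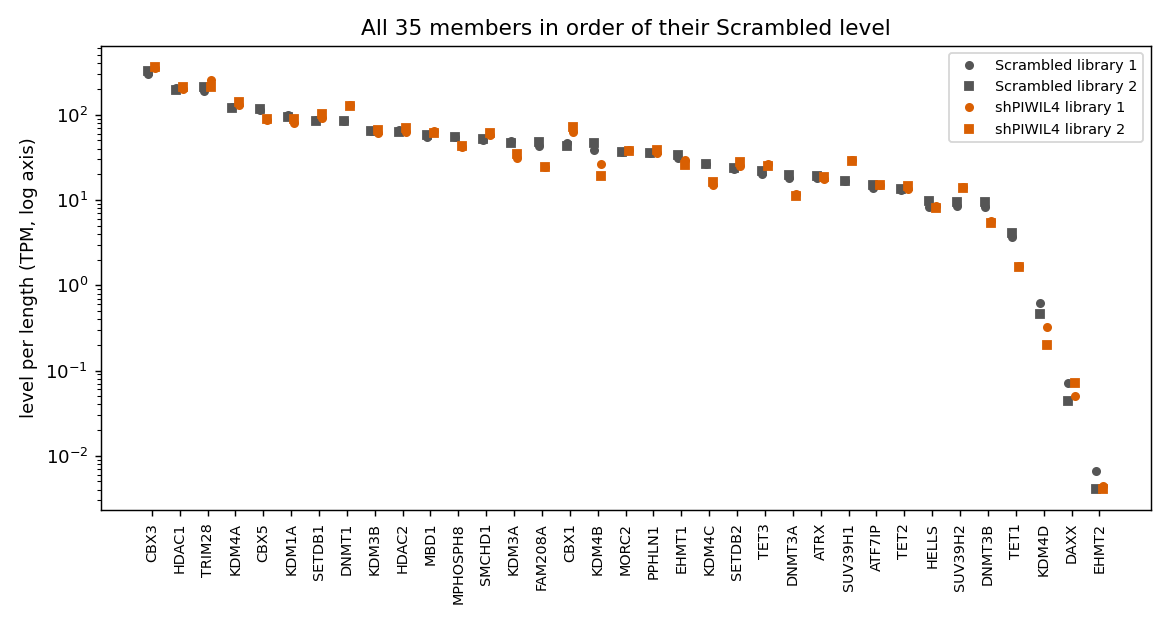
Level per length (TPM, log axis) of all 35 members in each library, ordered by the Scrambled mean. Grey symbols, placed left of each tick, are Scrambled and orange symbols, placed right, are shPIWIL4, with circles for library 1 and squares for library 2. DAXX and EHMT2 lie far below the other members, under 0.1 TPM.

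The values of DAXX and EHMT2 should not be read as expression levels. DAXX, the histone H3.3 chaperone, had 15 and 15 counts in Scrambled and 16 and 24 in shPIWIL4, and EHMT2, the main euchromatic H3K9 methyltransferase, had 3 counts in every library. Both genes lie in the major histocompatibility complex on chromosome 6. The gene length used in the tables, recovered from count and FPKM, was 5.01 times the longest GENCODE transcript for DAXX and 6.86 times for EHMT2, while the ratio of the other 33 members lay between 0.56 and 1.51. Among genes from HLA-F to KIFC1, 80 of 93 with a value had a ratio of at least 4, with a median of 6.74, against 20 of 15328 other protein-coding genes, whose median was 1.0. The median of the mean count was 1.0 over 133 genes of that region and 444 over 17632 other protein-coding genes. Why the tables hold long lengths and low counts there was not tested. The interval of the DAXX log2 fold change, -0.72 to 0.96, is the widest of the 34 members, and EHMT2 was not tested.

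**Figure D5:**
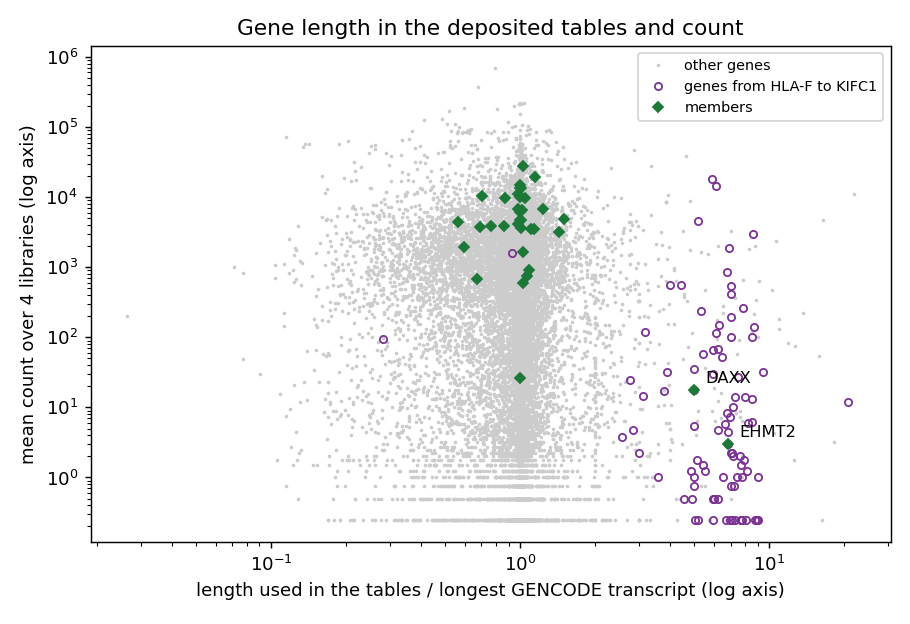
Ratio of the gene length used in the tables to the longest GENCODE transcript (x, log axis) against the mean count over the 4 libraries (y, log axis), 1 point per gene. Purple circles are genes from HLA-F to KIFC1 and green diamonds are members. DAXX and EHMT2 sit with that region at ratios of 5.01 and 6.86, and the other members lie near 1.

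Beyond the members, 60 further genes of heterochromatin and DNA methylation were followed. Of these 57 were tested, 20 rose and 12 fell, where 28.7% of all genes tested were higher and 29.1% lower, and the median log2 fold change was 0.08. Leaving out the first Scrambled library gave 16 rises and 7 falls, and so did the replicate number as a block. L3MBTL2, a reader of histone methylation, rose by 1.04 (SE 0.08), from 35.4 and 35.7 CPM to 72.1 and 73.8 CPM. E2F6, a repressor found in a complex with L3MBTL2, rose by 0.88 (SE 0.10). The histone chaperone subunit CHAF1A rose by 0.60 (SE 0.08), the H3K9 methyltransferase gene PRDM2 by 0.55 (SE 0.09) and the methyl-CpG binding gene MBD2 by 0.63 (SE 0.10). ERH, which works with H3K9 methylation at repeats, rose by 0.47 (SE 0.08).

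The falls in this wider list were led by DNMT3L, described above. The chromatin assembly gene RBBP4 fell by 0.73 (SE 0.08), from 243 and 245 CPM to 142 and 152 CPM, while its paralog RBBP7 rose by 0.49 (SE 0.09). ZNF274, a zinc finger protein that brings SETDB1 to zinc finger gene clusters, fell by 0.57 (SE 0.08), and KIAA1551, a SETDB1 partner also known as RESF1, by 0.62 (SE 0.10). SUV420H1, which methylates histone H4 in heterochromatin, fell by 0.53 (SE 0.10), and KDM7A, a demethylase of H3K9 and H3K27, by 0.70 (SE 0.14). H3F3B, a gene for histone H3.3, fell by 0.40 (SE 0.08), and ZBTB4, a reader of methylated DNA, by 0.30 (SE 0.08). H3F3A, also a gene for H3.3, had a log2 fold change of 0.11 (interval -0.08 to 0.30) and was not called. Nor was SUV420H2, the paralog of SUV420H1, at 0.24 (interval -0.08 to 0.56). Among the genes of the wider list named here as called, the largest edgeR adjusted p was 0.0118, that of ZBTB4.

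Germline genes kept silent by promoter DNA methylation in most somatic cells were also followed. Of 26 such genes, 13 were listed at 0 in all libraries, and 6 passed the filter on low counts. Of these, SYCP3 and TEX15 rose, by 0.71 (SE 0.14) and 0.44 (SE 0.11), and HORMAD1, MAGEA3 and STK31 fell, STK31 from at most 13 counts. With 57.7% of all genes tested called, calls in both directions among 6 genes are no result about this list. HORMAD1, a meiotic chromosome axis protein, went from 8.85 and 9.53 CPM in Scrambled to 2.66 and 2.75 CPM in shPIWIL4, a fall of 1.76 (SE 0.13). The summed level of the list was 19.7 and 20.8 TPM in Scrambled and 16.6 and 15.5 TPM in shPIWIL4. DNA methylation itself and histone marks were not measured in these samples.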

How the data were processed

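Per the submitters' processing notes, STAR, featureCounts and DESeq2 were used with genome build hg19. Their versions, the annotation and whether counting used strand: not given in the sources used here. Each library's table, as deposited by the authors, gives whole-number counts per gene beside FPKM and TPM. The authors' FPKM served only to recover gene lengths. The authors' TPM served to compare levels between genes and to give single and summed levels in each library. These TPM values are not scaled by the TMM factors of the test, so their differences between groups are descriptions. MORC2, with a log2 fold change of 0.012, went from a mean of 36.7 TPM in Scrambled to 38.2 TPM in shPIWIL4. A normalized table of the whole series, with 4 sample columns, was not used.

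Testing used edgeR 4.0.16 (R 4.3.3): filterByExpr (min.count 10, min.total.count 15), TMM factors, and the robust quasi-likelihood test with group as the only term. Benjamini-Hochberg adjustment ran over 16108 genes, with a threshold of 0.05. The SE is the size of the log2 fold change divided by the square root of F. Upper-quartile factors moved the median of all genes to -0.12 from -0.0034, so changes are relative to the scaling. Alternatives were DESeq2 1.42.0, other scalings and filters, length and GC offsets, a replicate block and leaving out each library.

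Members and lists were chosen with earlier results of these data known. All members are named. Of 60 further genes, the 8 called in each direction with the smallest p were named, and of the other lists up to 4 genes with the largest mean TPM. Beside that rule, all 12 myeloid markers are named. UHRF1, E2F1, IDH2, RBBP7, H3F3A, SUV420H2, STK31 and MS4A1 were also singled out, after their values were seen or for their role. Replicate libraries differed by more than sampling noise (chi-square per gene of 7.89 in Scrambled and 27.9 in shPIWIL4). Without a stated strand setting, KDM4A cannot be told apart from KDM4A-AS1 (1314 to 2513 counts), nor MORC2 from MORC2-AS1 (163 to 236 counts), and CBX3 may share reads with its pseudogenes. The 28 rows whose names had become dates carry no gene name here.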

Additional observations from a re-analysis of the deposited data

How the results depend on the processing

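Of the 16 called members, 13 kept their direction and call under all 12 alternatives run. The exceptions were EHMT1, TET3 and KDM4D, and KDM4D has 11 alternatives because the stricter filter drops it. PIWIL4 was called lower under all 12. The 5 members called higher ranged from 4 to 9 when 1 library was left out, with 9 without shPIWIL4 library 1 (SETDB1, SETDB2, KDM4A and SMCHD1 added), and the 11 called lower ranged from 9 to 11. Upper-quartile factors added KDM1A, ATRX and HELLS to the falls. The further pathway genes called lower, 12, ranged from 7 to 14 when 1 library was left out, with 7 without Scrambled library 1. A group left with 1 library is assumed to vary like the other. The replicate numbers are not stated to mark a shared batch. Deviations of same-numbered libraries from their group means correlated at -0.312 over 16108 genes. With 2 libraries a group, this value cannot tell whether same-numbered libraries shared a batch. With the replicate number as a block, 4 members were higher and 10 lower, 3921 and 4197 of all genes, and 16 and 7 of the further pathway genes. The median over the members, 0.009, was -0.113 with upper-quartile factors, and from -0.092 to 0.06 when 1 library was left out. The causes were not tested. The GC offset was chosen after seeing the data.

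The members that changed sign were uncalled. Upper-quartile factors gave log2 fold changes of -0.108 for ATF7IP, -0.001 for MBD1, -0.094 for PPHLN1, -0.11 for MORC2, -0.097 for TET2 and -0.116 for HDAC2. Library totals gave -0.033 for ATF7IP, -0.019 for PPHLN1, -0.034 for MORC2, -0.022 for TET2 and -0.041 for HDAC2. The stricter filter gave -0.034 for ATF7IP, -0.021 for PPHLN1, -0.036 for MORC2, -0.023 for TET2 and -0.043 for HDAC2. The GC offset gave -0.008 for ATF7IP, -0.002 for PPHLN1, -0.007 for MORC2, -0.017 for TET2 and -0.004 for HDAC2. HDAC1 was 0.024 with no filter and ATRX 0.01 with the length offset. When 1 library was left out, ATF7IP ranged from -0.002 to 0.051, PPHLN1 from -0.058 to 0.124, MORC2 from -0.009 to 0.063, DAXX from -0.273 to 0.476, TET2 from -0.05 to 0.112, KDM3B from -0.162 to 0.009, HDAC1 from -0.082 to 0.072 and HDAC2 from -0.103 to 0.123.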
